A study of Homo sapiens with 6 samples.

Results

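The clade B serpins of the chromosome 18q21 cluster are 10 neighbouring genes, and the rows of the deposited table that carry their names were 10 of 56303 gene rows. The genes were chosen from their measured difference between siFBXL6 and siNC, so their values are given as a description, no p-value is printed for them, and the number that passed the call rule supports nothing about them. T24 cells, an established human bladder carcinoma line labelled wild type, were transfected for 48 h with a control siRNA (siNC) or with siRNA against FBXL6 (siFBXL6), and 3 RNA-seq libraries were deposited for each group. All 6 libraries came from mRNA prepared with a stranded kit and carried the same batch label, and none of the sources used here says for these libraries whether the 3 samples of a group were separate cultures or which siRNA sequence each siFBXL6 sample received. The labels number the siFBXL6 samples 1 to 3, which was taken as the replicate number, but the study also uses siFBXL6-1 and siFBXL6-2 as names of different siRNA sequences. Library totals were 58646515, 60967902 and 56814946 counts for siNC and 60968158, 60898556 and 60754015 counts for siFBXL6. Clade B serpins are mostly intracellular inhibitors that trap a protease by offering a flexible reactive centre loop as bait and then changing shape around the enzyme. The cluster on chromosome 18 holds inhibitors of urokinase, of cathepsins and of chymotrypsin-like enzymes, and several of its genes are best known from squamous epithelium, where they accompany keratinocyte differentiation. SERPINB5 (maspin) kept the serpin fold but is regarded as a non-inhibitory member.

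FBXL6, the siRNA target, had counts of 362, 414 and 398 in the siNC libraries and 398, 344 and 350 in the siFBXL6 libraries. The groups overlapped, and the log2 fold change was -0.13 with a standard error of 0.09 (adjusted p = 0.247 in edgeR's quasi-likelihood test). The target transcript therefore did not pass the test, and the groups are called by their labels, as the libraries labelled siFBXL6 and siNC. Levels are counts scaled to TMM-normalized library totals (CPM), or CPM per kilobase of summed exon length (RPKM) where genes are compared with each other. A gene was called at an adjusted p under 0.05 in edgeR, over 21298 genes tested.

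The labelled cell type was compared with marker genes. Of 15 urothelial markers, KRT7 was the most abundant, and the list summed to 3509, 3391 and 3498 CPM in siNC and 3174, 3156 and 3165 CPM in the libraries labelled siFBXL6. UPK1A had no count in any library, and KRT20, UPK1B and UPK3A stayed under 1 CPM. T24 is usually described as a mesenchymal-like line rich in vimentin and poor in E-cadherin, whereas in the siNC libraries VIM was at 15.6 CPM, CDH1 at 118 CPM, EPCAM at 274 CPM and KRT5 at 437 CPM. The other 5 mesenchymal markers were at 2429 CPM for FN1, 138 CPM for CDH2, 101 CPM for SNAI2, 6.05 CPM for TWIST1 and 1.12 CPM for ZEB1. Not all of these levels match that description. The study's methods say that its lines had been authenticated by short tandem repeats, and the identity of the line was not tested here. The 6 mesenchymal markers summed to 2763, 2684 and 2624 CPM in siNC and 2376, 2414 and 2429 CPM in siFBXL6, most of it FN1. The 8 myeloid markers summed to 9.64, 9.87 and 9.65 CPM in siNC and 23.5, 22.0 and 22.9 CPM in siFBXL6. Of 6 tested, 2 were called (33.3%, beside 40.2% of all genes tested), both higher. CD68, a lysosomal protein, was the most abundant, with a log2 fold change of 1.49 (adjusted p = 4.65e-19, edgeR). CSF1R, the receptor of macrophage colony-stimulating factor, rose from 1.32 to 2.45 CPM (log2 fold change 0.90, adjusted p = 3.26e-05, edgeR). The other 6 (PTPRC, CD14, LYZ, ITGAM, FCGR3A and MPO) were under 1 CPM in every library. The part of these markers in the members' differences was not tested. The 7 stromal and endothelial markers summed to 38.7, 40.4 and 38.2 CPM in siNC and 37.0, 36.3 and 36.3 CPM in siFBXL6, led by COL1A1. All 7 were tested and 2 were called (28.6%), 1 higher and 1 lower. COL1A1 fell from 34.9 to 31.5 CPM (log2 fold change -0.15, adjusted p = 0.00427, edgeR). PECAM1 had means of 0.573 CPM in siNC and 1.39 CPM in siFBXL6 (log2 fold change 1.28, adjusted p = 4.40e-05, edgeR).

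The cluster spans 543 kb of GRCh38, chr18:63476761-64019779. From SERPINB5 at its start to SERPINB8 at its end, 8 of the 10 genes lie on the plus strand, and SERPINB4 and SERPINB3 lie on the minus strand. Of the 10 genes, 9 had enough counts to be tested and 5 were called, all higher in the libraries labelled siFBXL6. Over all genes tested, 40.2% were called, 20.5% as higher and 19.8% as lower. This balance turned towards lower with upper quartile scaling and with library size alone (3930 higher and 4777 lower for the latter). It did not turn with RLE scaling (4392 higher and 4167 lower). SERPINB2, SERPINB10 and SERPINB7 were called and at least 2-fold higher, beside 1.77% of all genes tested. These shares stand beside the members' counts for reference only: the same contrast was used to choose the genes, so passing the rule is no independent evidence for any of them.

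SERPINB2 (plasminogen activator inhibitor type 2) inhibits the urokinase and tissue plasminogen activators. Its counts were 5064, 5277 and 5014 in siNC and 22290, 22797 and 22341 in the libraries labelled siFBXL6, or 86.6, 85.4 and 87.3 CPM against 369, 377 and 371 CPM. The 3 libraries of each group lay close together and the groups did not overlap. The log2 fold change was 2.11 with a standard error of 0.03, a 4.31-fold difference, which ranked 41 from the top among the 21298 genes tested. SERPINB2 was the most abundant cluster transcript per kilobase in both groups, at 31.5 ± 0.348 RPKM in siNC and 135 ± 1.68 RPKM in siFBXL6 (SD, n = 3). The 250 bases before its RefSeq start (GRCh38.p14, plus strand, chr18:63887455-63887704) are shown because SERPINB2 had the largest log2 fold change of the 9 members tested. Capitals mark a TGANTCA match (AP-1) that begins 102 bases before the start and a TATAAA match that begins 30 bases before it.
SERPINB2: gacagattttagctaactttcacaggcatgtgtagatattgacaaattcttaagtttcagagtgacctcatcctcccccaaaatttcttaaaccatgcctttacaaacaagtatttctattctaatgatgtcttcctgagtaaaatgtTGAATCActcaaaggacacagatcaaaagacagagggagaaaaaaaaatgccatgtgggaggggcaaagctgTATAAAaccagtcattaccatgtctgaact

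SERPINB10 (bomapin), known from haematopoietic cells, starts within the last exons of SERPINB2 in the annotation behind the table. Its counts were 2810, 2897 and 2778 in siNC and 12004, 12202 and 12250 in the libraries labelled siFBXL6, with a log2 fold change of 2.07 and a standard error of 0.03. The groups did not overlap, and the fold change was close to that of SERPINB2. Both genes lie on the plus strand and share 547 exon bases, 20.3% of the exon bases of SERPINB10 and 19.9% of those of SERPINB2. SERPINB10 counts were 55.5%, 54.9% and 55.4% of SERPINB2 counts in siNC and 53.9%, 53.5% and 54.8% in siFBXL6. The ratio therefore stayed between 53.5% and 55.5% while both genes differed about as much between the groups. All 5 shared segments lie inside coding exons of SERPINB2 and make up 43.9% of its 1245 coding bases. None of them overlaps a coding exon of the GENCODE v44 canonical transcript of SERPINB10. How reads on shared bases were assigned is not given in the sources used here. Of 586 genes whose exon bases all lie within genes of the same strand, 528 had counts. How much of the SERPINB10 count came from reads of SERPINB2 was not tested, and its level and fold change are uncertain for that reason. Below are the 3 longest shared segments (GRCh38, plus strand), from which a read could be counted for either gene.
chr18:63902404-63902568, 165 bases, coding exon 6 of SERPINB2: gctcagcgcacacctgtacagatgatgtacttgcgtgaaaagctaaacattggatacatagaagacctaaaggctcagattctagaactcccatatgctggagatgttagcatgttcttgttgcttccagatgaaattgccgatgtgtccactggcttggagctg
chr18:63901740-63901882, 143 bases, coding exon 5 of SERPINB2: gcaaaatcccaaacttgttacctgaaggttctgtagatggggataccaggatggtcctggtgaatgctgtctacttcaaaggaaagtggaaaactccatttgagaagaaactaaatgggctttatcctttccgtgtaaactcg
chr18:63897727-63897844, 118 bases, coding exon 4 of SERPINB2: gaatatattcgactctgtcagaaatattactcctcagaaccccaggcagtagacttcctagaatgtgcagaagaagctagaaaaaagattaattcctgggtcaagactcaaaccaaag

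SERPINB7 (megsin) is expressed in the epidermis, where its loss causes a palmoplantar keratosis. It had 64, 86 and 82 counts in siNC and 264, 212 and 237 counts in the libraries labelled siFBXL6, or 1.09, 1.39 and 1.43 CPM against 4.37, 3.51 and 3.93 CPM. All siFBXL6 libraries were above all siNC libraries, and no exon base of SERPINB7 is shared with another gene. The log2 fold change was 1.59 with a standard error of 0.14, a wider error than that of SERPINB2 at its far lower count. Its level per kilobase was 0.495 ± 0.0695 RPKM in siNC and 1.49 ± 0.162 RPKM in siFBXL6 (SD, n = 3). RefSeq gives 3 starts for SERPINB7. The promoter of the most downstream of them (GRCh38.p14, plus strand, chr18:63777531-63777780) held the most matches, 2 to TGANTCA and 2 to TATAAA on either strand, in capitals.
SERPINB7, start 3: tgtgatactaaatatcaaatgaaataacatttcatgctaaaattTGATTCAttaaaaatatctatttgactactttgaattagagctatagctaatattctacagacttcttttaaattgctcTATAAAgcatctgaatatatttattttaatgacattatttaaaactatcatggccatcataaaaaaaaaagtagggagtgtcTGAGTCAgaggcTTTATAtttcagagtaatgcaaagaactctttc

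SERPINB8 inhibits furin and other proprotein-processing enzymes. It had 30.1, 28.1 and 27.8 CPM in siNC and 45.4, 45.8 and 45.7 CPM in the libraries labelled siFBXL6. The groups did not overlap, with a log2 fold change of 0.67 and a standard error of 0.04. SERPINB8 shares 370 exon bases with HMSD on the same strand, 6.3% of its own and 12.7% of those of HMSD, and 257 bases with RP11-793J2.1 on the opposite strand. HMSD, which encodes a serpin-domain minor histocompatibility antigen, had 595, 518 and 515 counts in siNC and 863, 797 and 904 in siFBXL6, between 28.8% and 33.7% of the SERPINB8 count. The log2 fold change of HMSD was 0.63 (standard error 0.07, adjusted p = 9.01e-09, edgeR), and that of RP11-793J2.1 was 0.46 (standard error 0.15, adjusted p = 0.0134, edgeR). The part of reads from SERPINB8 in these neighbours was not tested. The SERPINB8 promoter (GRCh38.p14, plus strand, chr18:63969831-63970080) held 2 TGANTCA matches, TATAAA on both strands at overlapping positions, a CCAAT box and a STAT match, all in capitals.
SERPINB8: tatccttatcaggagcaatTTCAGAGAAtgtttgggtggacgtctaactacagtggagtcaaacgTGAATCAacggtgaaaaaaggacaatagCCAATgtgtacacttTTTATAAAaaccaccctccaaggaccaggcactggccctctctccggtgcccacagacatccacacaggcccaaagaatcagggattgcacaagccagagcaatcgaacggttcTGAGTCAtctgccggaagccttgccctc

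SERPINB3 and SERPINB4 (squamous cell carcinoma antigens) are near-identical neighbours. SERPINB3 inhibits papain-like cathepsins and SERPINB4 inhibits chymotrypsin-like enzymes such as cathepsin G. SERPINB3 had 11.8, 12.5 and 12.7 CPM in siNC and 14.9, 17.1 and 15.3 CPM in the libraries labelled siFBXL6. The groups did not overlap, and the log2 fold change of SERPINB3 was 0.35 with a standard error of 0.06. SERPINB4 had 74, 79 and 64 counts in siNC and 92, 63 and 78 counts in siFBXL6. The SERPINB4 groups overlapped, with a log2 fold change of 0.08 and a standard error of 0.19. Per kilobase, SERPINB3 was at 6.94 RPKM and SERPINB4 at 0.606 RPKM in siNC. The coding sequences of their canonical GENCODE v44 transcripts are each 1170 bases long and differ at 56 positions (95.2% identical), with an identical run of 129 bases. Reads from such runs match both genes, so the division of counts between SERPINB3 and SERPINB4 is uncertain. Mismatches were unevenly spread, from 2 in the 129 bases of coding exon 3 (98.4% identical) to 13 in the 143 bases of coding exon 5 (90.9% identical), with 24 in the 402 bases of coding exon 7 (94.0% identical). The 90-base window with the most mismatches, 13, covers coding bases 969 to 1058 and takes in the hinge of the reactive centre loop. Both sequences are shown in the direction of transcription (minus strand of GRCh38), with capitals at the bases that differ.
SERPINB3, chr18:63655772-63655861: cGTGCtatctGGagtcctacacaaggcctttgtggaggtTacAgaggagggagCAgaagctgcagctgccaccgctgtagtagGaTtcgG
SERPINB4, chr18:63637834-63637923: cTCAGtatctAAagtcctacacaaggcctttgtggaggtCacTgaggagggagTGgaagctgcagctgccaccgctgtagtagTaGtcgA

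SERPINB11, a serpin that is a pseudogene in part of the human population, lies across SERPINB3 on the opposite strand. It had 29, 56 and 42 counts in siNC and 57, 41 and 55 counts in the libraries labelled siFBXL6. The groups overlapped, with a log2 fold change of 0.24 and a standard error of 0.25. SERPINB11 and SERPINB3 share 620 exon bases (chr18:63655357-63655976), 16.8% of those of SERPINB11 and 34.9% of those of SERPINB3. SERPINB11 counts were between 4.0% and 7.3% of SERPINB3 counts in the 6 libraries. Whether the counting used strand is not given, so reads from SERPINB11 and SERPINB3 in this segment cannot be told apart. Of 675 genes whose exon bases are all shared with a gene of the opposite strand, 542 had counts. How much of the SERPINB11 count came from reads of SERPINB3 was not tested.

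SERPINB5 (maspin), a gene of epithelial cells first described as a tumour suppressor in breast epithelium, had 66.9, 66.0 and 67.3 CPM in siNC and 66.6, 66.5 and 65.0 CPM in the libraries labelled siFBXL6. The groups overlapped, and the log2 fold change was -0.01 with a standard error of 0.03. At 16.9 ± 0.166 RPKM in siNC and 16.8 ± 0.223 RPKM in siFBXL6 (SD, n = 3), SERPINB5 ranked 3 among the members in both groups. Its promoter (GRCh38.p14, plus strand, chr18:63476708-63476957) is shown beside those of the genes that differed. It too held a TGANTCA match, in capitals, which begins 146 bases before the start.
SERPINB5: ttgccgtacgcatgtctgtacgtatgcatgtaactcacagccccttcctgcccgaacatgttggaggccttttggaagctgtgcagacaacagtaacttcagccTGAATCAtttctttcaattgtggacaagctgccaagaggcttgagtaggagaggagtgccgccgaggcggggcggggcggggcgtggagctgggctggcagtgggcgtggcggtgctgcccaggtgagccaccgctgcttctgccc

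SERPINB13 (headpin), an inhibitor of cathepsins L and K that is expressed in squamous epithelium, had 5.04, 4.48 and 4.41 CPM in siNC and 4.18, 3.74 and 4.05 CPM in the libraries labelled siFBXL6. The siFBXL6 values were all below the siNC values, but the gene was not called, with a log2 fold change of -0.22 and a standard error of 0.10. SERPINB12 (yukopin), an inhibitor of trypsin-like enzymes, had 2, 4 and 2 counts in siNC and 0, 0 and 2 in siFBXL6. The default filter removed SERPINB12 from the main fit, and no fold change is given for it. In the alternative without a filter SERPINB12 was not called.

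**Figure D1:**
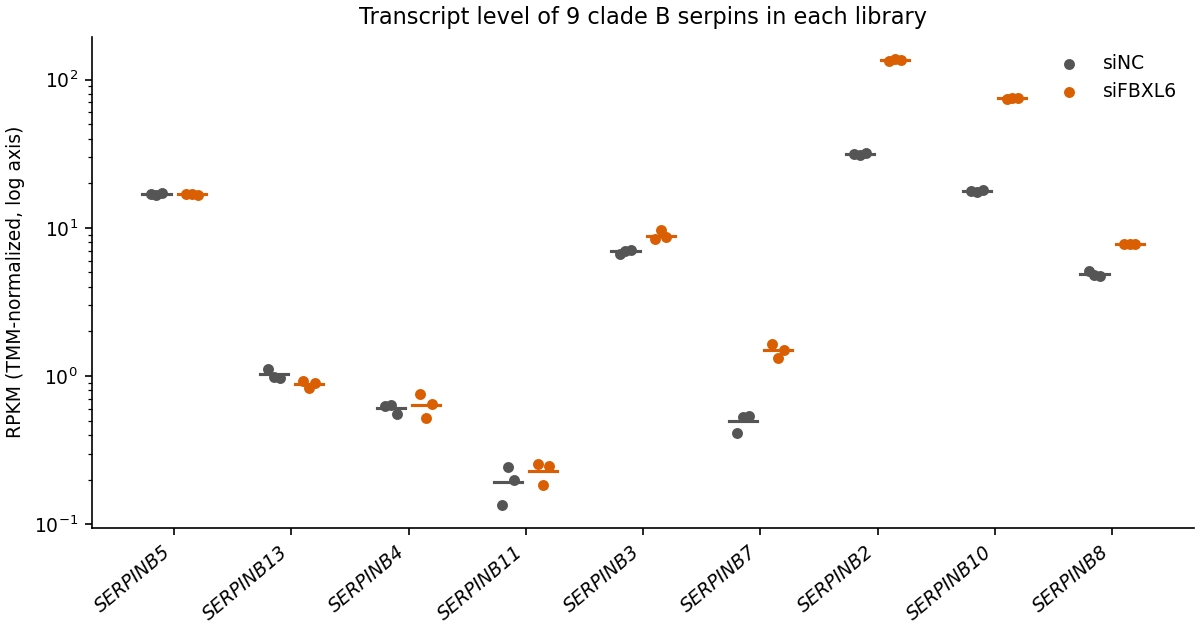
RPKM (TMM-normalized, log axis) of 9 cluster members in chromosomal order, with a point for each library and a line at each group mean (n = 3 per group, grey for siNC and orange for siFBXL6). SERPINB12, with counts of 0 in 2 libraries, is left out. SERPINB2 lies highest in both groups, from 31.1 to 31.8 RPKM in siNC and from 134 to 137 RPKM in siFBXL6.

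On the scale of RPKM, the order of the siNC means was SERPINB2, SERPINB10, SERPINB5, SERPINB3, SERPINB8, SERPINB13, SERPINB4, SERPINB7, SERPINB11 and SERPINB12. No neighbours in that order overlapped over the 3 libraries, but SERPINB10 and SERPINB5 came close, with a lowest value of 17.4 RPKM against a highest of 17.1 RPKM. SERPINB4 and SERPINB7 were also close, at 0.554 against 0.542 RPKM. In the libraries labelled siFBXL6 the order was the same except that SERPINB7 moved from rank 8 to rank 6, above SERPINB13 and SERPINB4. SERPINB3 and SERPINB8 were then near each other, with a lowest value of 8.37 RPKM against a highest of 7.81 RPKM. These levels include any reads that SERPINB2, SERPINB10, SERPINB8, SERPINB3 and SERPINB11 share with neighbours. The division of counts between SERPINB3 and SERPINB4 is uncertain too.

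Promoters in the RefSeq table matched 8 of the 10 members, with 11 starts, and SERPINB10 and SERPINB11 had no entry. In the 250 bases before each start, both strands were searched for the TATA box as TATAAA, the AP-1 motif as TGANTCA, the cyclic AMP response element as TGACGTCA, the CCAAT box, the STAT motif as TTCNNNGAA and the NF-kB motif. TGANTCA was found before 7 of the 11 starts, in SERPINB2, SERPINB5, SERPINB7, SERPINB8, SERPINB12 and SERPINB13, and in 6.57% of all 35116 promoters of the table. TATAAA was found before 4 of the 11 starts and in 10.7% of all promoters. TTCNNNGAA was found before 3 starts (6.57% of all promoters), CCAAT before 2 (32.0%) and the NF-kB motif before 1, the most upstream start of SERPINB7 (5.21%). TGACGTCA was found before none of them and in 1.65% of all promoters. SERPINB3 and SERPINB4 held no match, and their promoters differ from each other at 3 of 250 bases. AP-1 matches stood before genes that were called, such as SERPINB2, and before genes that were not, such as SERPINB5 and SERPINB13, and a match says only that these letters are present.

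Around the cluster, 23 other rows lie inside it or within 1 Mb on either side, of which 9 were tested and 4 were called (44.4%, beside 40.2% of all genes tested), all higher in the libraries labelled siFBXL6. The 4 were HMSD, RP11-793J2.1, VPS4B, an ATPase of endosomal sorting, and KDSR, a reductase of sphingolipid synthesis. RP11-793J2.1 was not called with DESeq2 or without siNC replicate 2, which left 3. VPS4B had means of 58.5 CPM in siNC and 78.9 CPM in siFBXL6 (adjusted p = 3.54e-12 in edgeR, log2 fold change 0.43 with a standard error of 0.04). KDSR had means of 24.3 and 27.9 CPM (log2 fold change 0.20, standard error 0.05, adjusted p = 0.000583, edgeR). BCL2, which lies between the cluster and PHLPP1, was at 5.58 and 5.45 CPM and was not called. The median log2 fold change of the 9 rows was 0.05, beside -0.01 over all genes tested.

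The clade B serpins of chromosome 6 were SERPINB1, SERPINB6 and SERPINB9. SERPINB1, an inhibitor of neutrophil elastase, rose from a mean of 16.6 CPM in siNC to 26.5 CPM in the libraries labelled siFBXL6 (adjusted p = 3.04e-12 in edgeR, log2 fold change 0.67 with a standard error of 0.05). SERPINB6 rose from 40.3 to 44.9 CPM (log2 fold change 0.16, adjusted p = 0.00150, edgeR). SERPINB9, the granzyme B inhibitor, was at 1.82 and 1.70 CPM and did not pass the test. Of 21 serpins of other clades, 12 were tested, 3 were called higher and 4 lower (58.3% called, beside 40.2% of all genes tested). The median log2 fold change of the 12 was -0.30. SERPINA5, the protein C inhibitor, fell from 1.31 to 0.282 CPM (log2 fold change -2.21, standard error 0.27, adjusted p = 2.96e-08, edgeR).

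Proteases that the cluster's proteins inhibit were compared next. Of 13 listed, 9 were tested and 4 were called (44.4%, beside 40.2% of all genes tested), all higher, with a median log2 fold change of -0.01. FURIN passed narrowly (log2 fold change 0.09, adjusted p = 0.0428, edgeR), and was not called with DESeq2, the replicate block and 7 other alternatives, which left 3. PLAU (urokinase), the main target of SERPINB2, rose from 174 to 303 CPM (log2 fold change 0.80, standard error 0.03, adjusted p = 2.09e-21, edgeR). PLAT, the tissue activator, rose from 130 to 161 CPM (log2 fold change 0.31, standard error 0.03, adjusted p = 2.40e-10, edgeR). Of 8 partners of plasminogen activation, 7 were tested and 5 were called (71.4%), all higher, with a median log2 fold change of 0.28. PLAUR, the urokinase receptor, rose from 235 to 375 CPM (log2 fold change 0.67, standard error 0.03, adjusted p = 5.97e-18, edgeR), and ANXA2, a plasminogen-binding annexin, from 918 to 1113 CPM (log2 fold change 0.28, standard error 0.03, adjusted p = 3.49e-10, edgeR). SERPINB2 and its target PLAU were thus both higher in the libraries labelled siFBXL6, with log2 fold changes of 2.11 and 0.80.

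Squamous differentiation genes form the setting in which several cluster members are best known. Of 27 listed, 25 were tested, 14 were called higher and 3 lower (68.0% called, beside 40.2% of all genes tested), with a median log2 fold change of 0.31. SPRR2D and SPRR2A, precursors of the cornified envelope, rose from 0.349 to 1.55 CPM (log2 fold change 2.14, adjusted p = 3.51e-09, edgeR) and from 0.963 to 3.73 CPM (log2 fold change 1.95, adjusted p = 2.68e-12, edgeR). IVL (involucrin) rose from 12.9 to 38.2 CPM (log2 fold change 1.57, standard error 0.05, adjusted p = 2.38e-22, edgeR). SBSN (suprabasin) rose from 0.134 to 0.387 CPM (log2 fold change 1.51, standard error 0.45, adjusted p = 0.00658, edgeR). SPRR2D, SPRR2A and SBSN had means under 4 CPM in both groups. The 3 called lower were KRT5, a basal keratin, which fell from 437 to 313 CPM (log2 fold change -0.48, adjusted p = 7.84e-16, edgeR), KRT13 (log2 fold change -0.38, adjusted p = 1.85e-07, edgeR) and LY6D, which fell from 0.180 to 0.0663 CPM (log2 fold change -1.41, adjusted p = 0.0425, edgeR). Of 15 urothelial markers, 11 were tested, 1 was called higher and 7 lower (72.7% called), with a median log2 fold change of -0.15. UPK3B, a uroplakin, fell from 0.947 to 0.414 CPM (log2 fold change -1.19, adjusted p = 0.00115, edgeR). Of the 6 mesenchymal markers 2 were called higher and 2 lower (66.7% called), with FN1 at a log2 fold change of -0.16 (adjusted p = 1.16e-05, edgeR) and CDH2 at -0.59 (adjusted p = 3.80e-17, edgeR). VIM and TWIST1 went the other way, at 0.70 (15.6 to 25.4 CPM, adjusted p = 2.57e-13, edgeR) and 0.49 (adjusted p = 7.12e-06, edgeR).

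Transcription factors that have been tied to serpin promoters numbered 31, all tested, with a median log2 fold change of 0.13. Of these, 14 were called higher and 3 lower (54.8% called, beside 40.2% of all genes tested). None of the 31 was called with a 2-fold difference, beside 378 higher and 244 lower of all 21298 genes tested. The most abundant were EHF, an epithelial ETS factor, at 354 and 391 CPM (log2 fold change 0.14, adjusted p = 8.55e-05, edgeR), and JUN, a subunit of AP-1, at 198 and 246 CPM (log2 fold change 0.32, adjusted p = 6.35e-11, edgeR). Those called lower included JUNB, another AP-1 subunit, which had the largest called difference of the list (53.8 to 36.4 CPM, log2 fold change -0.57, adjusted p = 1.43e-11, edgeR), and ATF3 (log2 fold change -0.30, adjusted p = 2.24e-05, edgeR).

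**Figure D2:**
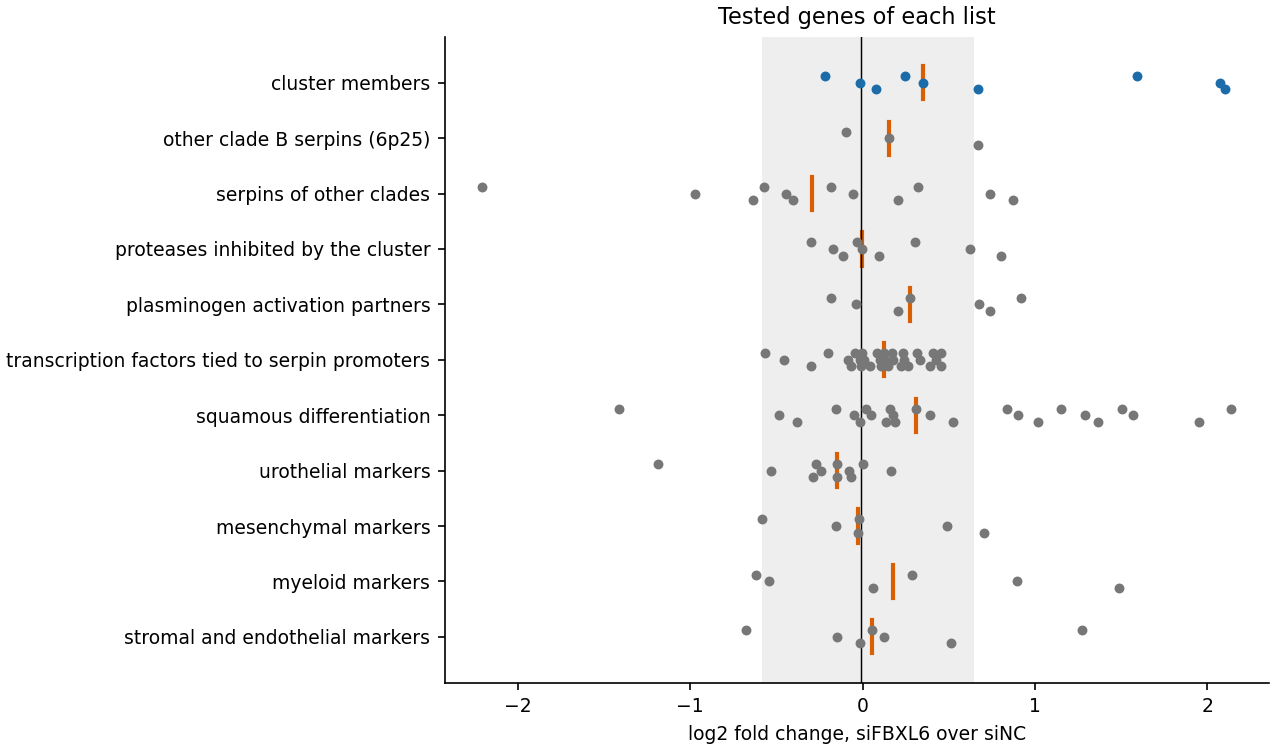
Log2 fold change of the libraries labelled siFBXL6 over siNC (horizontal axis) for the tested genes of each list, with an orange line at the median of the list. The grey band runs from the 5th to the 95th percentile of all genes tested (-0.58 to 0.64) and the black line marks their median. Among the cluster members, SERPINB2, SERPINB10, SERPINB7 and, narrowly, SERPINB8 at 0.67 lie to the right of the band.

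Over the 6 libraries, the tested genes outside the cluster with the profile nearest to that of SERPINB2 were BCL2A1, SCEL, AC003092.1, CREB5 and CSF3, out of 16185 candidates whose mean reached 1 CPM. Likeness was the root mean square distance between mean-centred log2 CPM profiles, which was 0.10 for BCL2A1 and 0.13 for CSF3. Their log2 fold changes were 2.21 for BCL2A1, 1.89 for SCEL, 2.25 for AC003092.1, 2.01 for CREB5 and 2.53 for CSF3. SCEL (sciellin), a precursor of the cornified envelope, was the most abundant of the 5, at a mean of 185 CPM.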

How the data were processed

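RNA-seq of 6 T24 samples was analysed from the deposited gene counts, which the authors made with featureCounts. The submitters' processing notes name fastp 0.23.0, STAR, Subread 1.5.1 and GRCh38, whereas the study's methods name other trimming and alignment tools (Trimmomatic and HISAT2). The annotation release, the strand setting and the handling of shared bases are not given in the sources used here. In every library, gene rows with a count of 2 (3301 to 3519) outnumbered those with a count of 1 (964 to 1080), as would arise if both reads of a pair were counted; this was not tested. P-values set the difference between the groups against the spread between the samples of a group, which may be only technical.

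Genes kept by filterByExpr (default settings) were fitted in edgeR 4.0.16 (R 4.3.3) with TMM and a quasi-likelihood test of condition, with Benjamini-Hochberg adjustment over 21298 genes. DESeq2 1.42.0, other scalings, other filters, a replicate block, leave-one-out and summed neighbours were alternatives. On simulated counts the fit gave unbiased fold changes but missed a part of the changed genes at low mean counts, the range of SERPINB11, and the pass limit of this check was reset after those misses were seen. RPKM and log2 CPM profiles (pseudocount 0.5) used TMM-scaled totals. Exon overlaps were computed from the table's coordinates, coding sequences from GENCODE v44 and promoters from RefSeq (GRCh38.p14). The members and lists were chosen with earlier results of these data known. Genes named were all members, FBXL6, the chromosome 6 clade B serpins, of each other list up to 4 called with at least a 2-fold difference or otherwise the 2 most abundant, up to 6 called neighbours, and the 5 genes nearest to SERPINB2. Other genes (VIM, TWIST1, SNAI2, ZEB1, CDH1, EPCAM, KRT5, KRT13, LY6D, CSF1R, COL1A1, FURIN, JUNB, ATF3, BCL2, PHLPP1 and markers near 0) were named after their values were seen.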

Additional observations from a re-analysis of the deposited data

How the results depend on the processing

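Under 13 alternatives (DESeq2, 3 other scalings, 2 other filters, the replicate block and 6 leave-one-out fits), 5 members passed the call rule each time; since the members were chosen from this contrast, that is a description and no sign of stability. All 182 counts of called genes, over 14 results, stayed within 1.5 times the reported value, though proteases fell from 4 to 3 in 9 alternatives neighbourhood genes from 4 to 3 in 2, serpins of other clades from 7 to 5 with DESeq2 and without siFBXL6 replicate 1 (8 at most), and squamous genes from 17 to 14 with 10 counts in every sample. Genes called numbered 8569, 7015 with DESeq2, 7451 to 8298 with a library left out, and 8408 with the replicate block. The balance of calls turned with scaling, from 4360 higher and 4209 lower to 3972 and 4718 with the upper quartile and to 3930 and 4777 with library size alone. With RLE scaling the balance did not turn, at 4392 higher and 4167 lower. The replicate numbers are not stated to pair samples: same-numbered deviations correlated at -0.05, 0.01 and -0.01, and the paired fit changed no call among the members. Of 124 alternative log2 fold changes of 9 members, 117 moved by less than 1 SD between replicates and 0 reversed the direction of a called member. These 124 include fits with summed neighbours, for which no calls were recorded. SERPINB2 and SERPINB10 lay between 2.05 and 2.11, SERPINB7 ranged from 1.48 to 1.67, SERPINB8 from 0.65 to 0.71 and SERPINB3 from 0.29 to 0.39. SERPINB4 ranged from -0.06 to 0.33, the upper value with SERPINB3 and SERPINB4 summed, and SERPINB11 from 0.04 to 0.46, the upper value without siNC replicate 2. Counts were fewest for SERPINB12, which the default filter removed from the main fit, and SERPINB11.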
